A study of Mus musculus with 24 samples.

Results

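The genes described here are 36 that encode enzymes and membrane proteins of the lysosome, together with the transcription factors that drive them. They were taken as a list of symbols, with no threshold on a measured value, and all 36 were found among the 20673 gene symbols counted in each library. By role they are 3 transcription factors, 7 membrane proteins, 9 proteases and peptidases, 8 glycosidases, 5 genes of lipid handling and enzyme cofactors, and 4 of the proton pump.

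Messenger RNA was sequenced from 4 kinds of activated immune cells of C57BL/6J mice that lacked miR-155 (KO) or were wild type (WT), with 3 libraries in each of the 8 groups. KO and WT B cells came from spleen, were selected as CD43-negative cells, and received LPS at 25 ug/ml with IL-4 at 6.5 ng/ml. KO and WT dendritic cells were CD11c-positive spleen cells, and their donors, of both genotypes, had carried B16 melanoma cells that make Flt3 ligand. LPS was given to them at 100 ng/ml together with GM-CSF at 20 ng/ml. KO and WT macrophages were drawn to the peritoneum by thioglycollate and received 100 ng/ml LPS. KO and WT CD4 T cells, without CD25 and CD44, came from spleen and lymph nodes and were stimulated by beads that bind CD3 and CD28. The series title asks how the kind of cell shapes what miR-155 does to gene expression. The 3 libraries of a condition are described as sequencing replicates and no separate animals are named, so p-values measure the spread between libraries, which may be technical. The tissue of origin, the purification and the stimulus differ along with the cell type and cannot be told apart from it.

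The lysosome is the acidic compartment in which cells digest proteins, sugars and lipids taken up from outside or delivered by autophagy. The proton pump (V-ATPase) acidifies it, hydrolases carry out the digestion, and membrane proteins such as LAMP1 and LAMP2 line the boundary while transporters move the products out. TFEB, TFE3 and MITF are related factors that bind E-box motifs in the promoters of many lysosomal genes, and they are held in the cytoplasm by mTORC1 when nutrients are plentiful. Macrophages are the classic cells of bulk digestion, while dendritic cells degrade antigen more slowly for presentation to T cells. miR-155 is induced when immune cells are activated and lowers messenger RNAs that match its seed.

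The sequence of miR-155 shows which letters a direct target would need, with the seed at bases 2 to 8 in capitals. The mature arm lies in mouse at chr16:84714143-84714165 on the plus strand (RefSeq, GRCm38.p6).
mmu-miR-155-5p: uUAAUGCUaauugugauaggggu
Sites that pair with this seed were looked for in 1 annotated 3' UTR per gene, its longest in GENCODE M21, as the 8mer AGCATTAA, the 7mer AGCATTA and the 7mer GCATTAA. None of the 36 lysosome genes held one (0 of 36), against 12.8% of the 19447 symbols with an annotated 3' UTR. The same search found 2 sites in Bach1, 2 in Jarid2, 3 in Picalm and 1 in Inpp5d, which are reported targets. The absence of a match says only that these letters are not in these UTRs.

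The E-box core CACGTG and the longer TCACGTG were searched on both strands in 300-base promoter windows, from 250 bases before to 50 after each gene's start (RefSeq, GRCm38.p6). The table of promoters matched 30 of the 36 genes. Npc1, Ctsb, Ctsh, Asah1, Atp6v0d2 and Atp6v1b2 are named only. CACGTG stood in 10 of the 30, against 8.09% of 27025 genes with a window. TCACGTG, which contains CACGTG, stood in 9 of the 30, against 4.29% of those genes. The 9 were Lamp1, Mcoln1, Ctsa, Ctsd, Gla, Glb1, Gaa, Naglu and Atp6v1a. To show where the motif lies, the 250 bases before the start are given for the 3 of them called between KO and WT dendritic cells with the smallest adjusted p, with TCACGTG or its reverse complement in capitals. Gaa (chr11:119267713-119267962, plus strand), Lamp1 (chr8:13158911-13159160, plus strand) and Glb1 (chr9:114400828-114401077, plus strand) read as follows.
Gaa: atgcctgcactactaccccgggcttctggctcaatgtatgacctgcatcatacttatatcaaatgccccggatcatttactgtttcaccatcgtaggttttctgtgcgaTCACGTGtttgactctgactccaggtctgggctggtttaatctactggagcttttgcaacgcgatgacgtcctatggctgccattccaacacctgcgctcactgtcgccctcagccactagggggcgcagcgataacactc
Lamp1: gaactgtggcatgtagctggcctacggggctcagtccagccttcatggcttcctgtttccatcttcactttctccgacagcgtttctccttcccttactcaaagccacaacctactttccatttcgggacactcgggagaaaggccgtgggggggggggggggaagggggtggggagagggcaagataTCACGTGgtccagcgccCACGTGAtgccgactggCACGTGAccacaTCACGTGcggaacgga
Glb1: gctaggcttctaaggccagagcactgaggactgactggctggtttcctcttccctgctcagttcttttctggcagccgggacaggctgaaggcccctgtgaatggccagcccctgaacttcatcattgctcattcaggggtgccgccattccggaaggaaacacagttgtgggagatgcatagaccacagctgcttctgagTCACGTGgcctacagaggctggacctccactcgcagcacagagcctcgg
Lamp1 carried 4 copies of the core between 61 and 15 bases before its start, while Gaa had 1 at 140 bases and Glb1 had 1 at 48 bases. As set out further on, Lamp1 and Gaa were higher in KO dendritic cells, and Glb1 and Naglu were lower. Mcoln1, Ctsa, Ctsd, Gla and Atp6v1a, which also carry TCACGTG, were not called there. A link between the motif and the direction of change was not tested. A motif match is a description of the letters and was not tested as a binding site.

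The libraries held 7428821 to 14219823 counts over all genes. The labelled cell types carried their own markers. Summed B cell markers lay between 2891 and 3277 CPM (counts scaled to a common library size) in B cell libraries and at most at 42.4 CPM in any other, and CD4 T cell markers between 1264 and 1370 CPM against at most 5.83 CPM. Macrophage markers lay between 23191 and 28726 CPM in macrophage libraries and at most at 290 CPM elsewhere, and dendritic cell markers between 11492 and 15807 CPM in dendritic cells and at most at 495 CPM elsewhere. Mir155 itself was not analysed here, so the genotype label was not checked on the deleted gene. One set of libraries stood apart in the lysosome genes: WT macrophage replicate 3 was the lowest of its group for 32 of the 36, and WT replicate 2 was the highest for 30. KO macrophage replicate 3 was the lowest of its group for 30. The median standard deviation over the 36 genes in WT macrophages was 0.341 on the log2 CPM scale, against 0.250 over all genes.

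In macrophages the lysosome genes took a share of the transcriptome that no other cell type approached. Together they held 5.48 ± 0.374% of gene counts in KO and 6.12 ± 1.89% in WT macrophages, and 0.970 ± 0.0175% in KO and 1.05 ± 0.0623% in WT dendritic cells (SD, n = 3 each). In B cells the shares were 0.336 ± 0.00870% in KO and 0.319 ± 0.00429% in WT, and in CD4 T cells 0.230 ± 0.00206% in KO and 0.225 ± 0.00740% in WT. Among WT cells, 35 of the 36 genes were highest in macrophages, and for 34 of these the 3 macrophage libraries lay above all libraries of the next cell type. How many of all genes were apart in this way was not counted, so the 34 describe only the lysosome genes. The exception to the order was Tfeb, which was highest in B cells. Dendritic cells came second for 30 genes, B cells for 4 and CD4 T cells for 2.

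**Figure D1:**
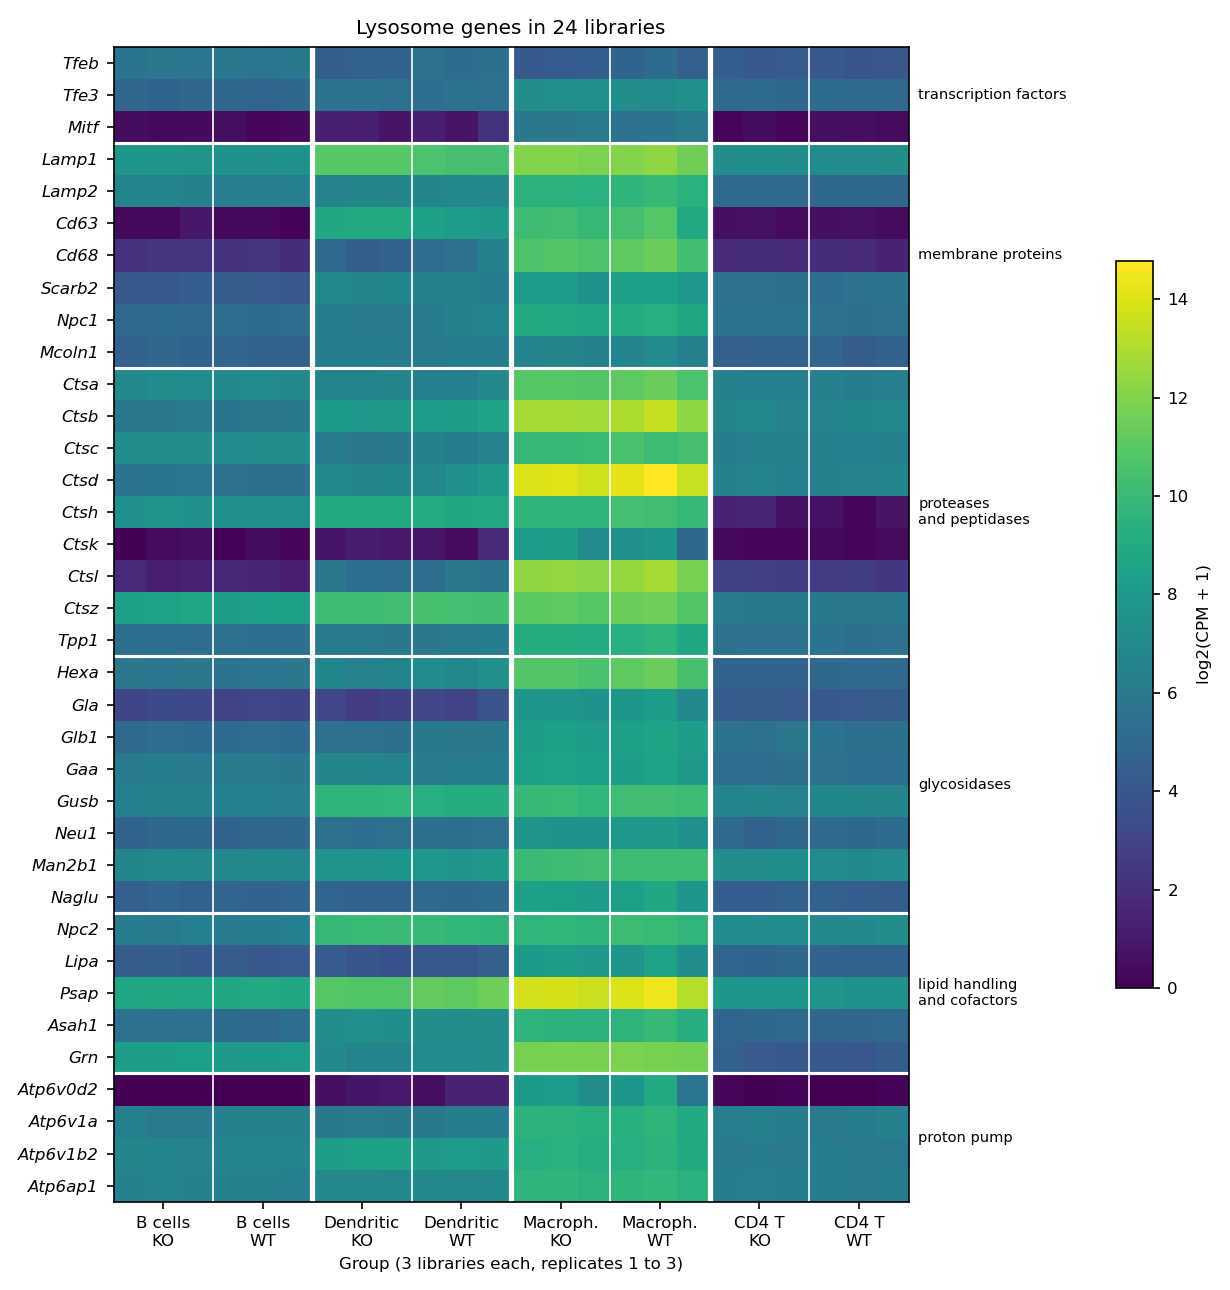
Level of the 36 lysosome genes (rows, by role) in the 24 libraries (columns, KO left of WT within each cell type, replicates 1 to 3), as log2(CPM + 1). Macrophage columns are the brightest for nearly every gene, Tfeb is brightest in B cells, and Ctsk, Atp6v0d2, Mitf and Cd63 are close to 0 in B and CD4 T cells.

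Against WT B and CD4 T cells, WT macrophages and dendritic cells had higher levels of 35 genes and a lower level of none, while Tfeb was not called. A gene was called at an adjusted p under 0.05 in edgeR's quasi-likelihood test, here and throughout. Over all 11863 genes tested in this comparison, 43.7% were called higher and 38.8% lower, so calls in themselves were common. At an unadjusted p under 0.05, 35 were higher and 0 lower, and the share of all genes at that threshold was not counted. The median log2 fold change was 2.55 over the lysosome genes and 0.10 over all genes tested. The proteases had the highest median of the 6 roles, at 4.39, and the glycosidases and the pump genes stood at 2.001 and 2.14.

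The 6 genes with the largest differences were 2 membrane proteins, 3 cathepsins and 1 pump subunit. Cd63, a tetraspanin of late endosomes and lysosomes, had 1360, 1923 and 508 CPM in WT macrophages and 346, 275 and 253 CPM in WT dendritic cells, against 0.295, 0.251 and 0.0975 CPM in WT B cells and 0.535, 0.610 and 0.354 CPM in WT CD4 T cells. The lymphoid libraries held 1 to 7 Cd63 counts each. Cd68, a macrosialin of phagocytes, had 2239, 2845 and 1277 CPM in macrophages and 38.5, 46.6 and 89.7 CPM in dendritic cells, against 3.34, 3.93 and 2.83 CPM in B cells and 2.76, 2.35 and 1.77 CPM in CD4 T cells. For both membrane proteins the WT libraries of all 4 cell types were apart, although for Cd63 the lymphoid values rest on those few counts. Macrophages and dendritic cells exceeded B and CD4 T cells by 10.80 (SE 0.43) in Cd63 and by 6.98 (SE 0.30) in Cd68 on the log2 scale (edgeR adjusted p = 7.5e-11 and 1.8e-10).

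Among the cathepsins, Ctsl, a cysteine protease of antigen processing, had 5669, 7223 and 3460 CPM in WT macrophages and 38.5, 56.5 and 49.6 CPM in WT dendritic cells, against 2.26, 1.92 and 1.36 CPM in WT B cells and 5.26, 5.66 and 4.07 CPM in WT CD4 T cells. Ctsh, an aminopeptidase, had 1323, 1239 and 907 CPM in macrophages and 546, 451 and 490 CPM in dendritic cells, against 171, 170 and 169 CPM in B cells and 0.624, 0.174 and 0.708 CPM in CD4 T cells. Ctsk, the collagen-degrading cathepsin of osteoclasts, had 167, 219 and 30.2 CPM in macrophages and 0.830, 0.362 and 2.49 CPM in dendritic cells, against 0.0983, 0.418 and 0.195 CPM in B cells and 0.267, 0.174 and 0.354 CPM in CD4 T cells. Ctsl was thus low in both lymphoid types, Ctsh only in CD4 T cells, and Ctsk was close to 0 outside macrophages. The contrasts were 7.40 (SE 0.23) for Ctsl, 6.35 (SE 0.17) for Ctsh and 5.61 (SE 1.04) for Ctsk on the log2 scale, with edgeR adjusted p of 8.2e-12, 1.4e-12 and 0.00025.

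Atp6v0d2, a subunit of the membrane part of the pump known from osteoclasts and macrophages, had 214, 520 and 55.2 CPM in WT macrophages and 0.474, 1.69 and 1.62 CPM in WT dendritic cells, against 0 in all 3 WT B cell libraries and 0, 0 and 0.0885 CPM in WT CD4 T cells. The single nonzero CD4 T cell value is 1 count. Against a floor of 3 counts in each B cell library, the mean in WT macrophages was at least 941-fold higher. The fitted log2 fold change of 9.65 (SE 1.84, edgeR adjusted p = 0.00055) rests on these zeros and is no bound. With the gene set at 6.03, the bound from the same floor, the median over the 36 genes stayed at 2.55.

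At the other end stood Tfeb, Atp6v1a and Tfe3. Tfeb had 26.6, 36.9 and 22.0 CPM in WT macrophages and 46.5, 34.3 and 43.5 CPM in WT dendritic cells, against 59.4, 55.6 and 61.6 CPM in WT B cells and 16.8, 14.4 and 15.0 CPM in WT CD4 T cells. Atp6v1a, the catalytic subunit of the pump, had 660, 801 and 530 CPM in macrophages and 60.8, 75.0 and 72.7 CPM in dendritic cells, against 86.2, 84.2 and 85.2 CPM in B cells and 70.4, 75.4 and 90.0 CPM in CD4 T cells. Tfe3 had 155, 138 and 167 CPM in macrophages and 41.8, 50.2 and 46.9 CPM in dendritic cells, against 30.5, 26.8 and 29.5 CPM in B cells and 36.1, 33.3 and 33.7 CPM in CD4 T cells. Tfeb overlapped between macrophages and dendritic cells and was separate elsewhere, and Tfe3 separated all 4. Atp6v1a was high in macrophages alone, and its CD4 T cell libraries overlapped those of B cells and of dendritic cells. The contrasts were 0.20 (SE 0.12) for Tfeb, 1.40 (SE 0.10) for Atp6v1a and 1.43 (SE 0.07) for Tfe3, with edgeR adjusted p of 0.14, 4.0e-08 and 7.0e-10. With DESeq2 size factors, and without WT macrophage replicate 3, Tfeb was called higher and all 36 genes with it. In the KO libraries the same contrast for Tfeb was -0.63, called lower (edgeR adjusted p = 2.9e-08), and 35 genes were called higher. Of all 12039 genes tested in that KO fit, 10385 were called higher or lower.

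Macrophages and dendritic cells, both phagocytes, differed from each other about as widely. WT macrophages exceeded WT dendritic cells in 34 of the 36 genes, fell below them in Tfeb, and did not pass the test in Npc2, the soluble carrier of cholesterol (0.16, SE 0.13, edgeR adjusted p = 0.28). Over all genes tested, 39.4% were called higher and 38.1% lower, with a median of 0.01, against a median of 2.67 over the lysosome genes. In the KO libraries 34 genes were higher as well, and Npc2 joined Tfeb among those lower, at -0.27. There 10046 of all 12039 genes tested were called higher or lower. The ratio of macrophages to the next cell type exceeded 100 for 4 genes: Ctsd at 109, Ctsk at 113, Ctsl at 113 and Atp6v0d2 at 208, dendritic cells being next for each. It was under 2 for Ctsz at 1.88, Gusb at 1.99, Mcoln1 at 1.47 and Npc2 at 1.12.

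WT B cells and WT CD4 T cells were closer and moved both ways, with 11 genes higher in B cells, 9 lower and 16 not called. Of all genes tested, 25.6% were called higher and 24.7% lower. The medians were 0.01 over the lysosome genes and 0.02 over all. Higher in B cells were Tfeb (log2 fold change 1.93), Lamp2 (1.40), the proteases Ctsh (8.37), Ctsz (2.43), Ctsc (0.78) and Ctsa (0.70), the glycosidases Hexa (0.76) and Gaa (0.58), the lipid-handling genes Grn (3.94) and Psap (1.25), and the pump subunit Atp6v1b2 (0.50). Lower in B cells were Scarb2 (-1.36), Ctsl (-1.43), Ctsd (-1.13), Ctsb (-0.92), Gla (-1.24), Gusb (-0.41), Glb1 (-0.31), Man2b1 (-0.25) and Npc2 (-0.79). All 4 cell types were separate in their WT libraries for 24 of the 36 genes, a count that was not made over all genes. Apart from Tfeb and Npc2, neighbours overlapped for Mitf, Mcoln1, Ctsk, Tpp1 and Atp6v0d2 between B and CD4 T cells. They overlapped for Ctsa and Ctsc between dendritic and CD4 T cells, and for Gla and Lipa between dendritic and B cells. For Atp6v1a, CD4 T cells overlapped both B cells and dendritic cells.

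Levels can be set between genes only per length, here as CPM per kb of coding sequence. On that scale WT macrophages were led by Ctsd, the main aspartic protease of the lysosome, with 16007 ± 6625 CPM per kb. Psap, the precursor of the saposins that help break down sphingolipids, followed with 9479 ± 4059, then the cysteine proteases Ctsb with 8090 ± 3214 and Ctsl with 5440 ± 1887 CPM per kb (SD, n = 3). WT dendritic cells were led by Npc2 with 1975 ± 155, Psap with 1508 ± 237, Ctsz with 1462 ± 67.5 and Lamp1 with 1183 ± 58.8 CPM per kb, and Ctsd ranked 10th there. Ctsz led in WT B cells at 351 ± 24.1 CPM per kb, and Npc2 in WT CD4 T cells at 290 ± 38.9 CPM per kb. Tfeb ranked last of the 36 in WT macrophages, at 17.8 ± 4.74 CPM per kb, and 16th in WT B cells, at 36.8 ± 1.89. The spread of the macrophage values follows their replicates 2 and 3, and neighbouring ranks there overlap. In the GENCODE M21 annotation Ctsd overlaps the coding sequence of Gm49369 on the same strand.

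Between KO and WT, 14 lysosome genes were called in dendritic cells, 6 of them higher in KO and 8 lower. In B cells 5 were higher, in CD4 T cells 1 was lower, and in macrophages none was called. Calls over all genes tested were also most common in dendritic cells, with 12.2% higher and 9.42% lower. These shares were 2.09% and 1.11% in B cells, 1.35% and 0.798% in CD4 T cells, and 0.55% and 0.336% in macrophages. In a bulk library fewer cells of a type and less RNA per cell cannot be told apart. Among the lysosome genes the largest called difference between KO and WT was -0.83 on the log2 scale. Their median for macrophages and dendritic cells over B and CD4 T cells in WT was 2.55. Their median absolute difference was 0.57 between WT B cells and WT CD4 T cells. Between KO and WT the same measure was 0.37 in dendritic cells, 0.18 in macrophages, 0.11 in B cells and 0.09 in CD4 T cells.

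**Figure D2:**
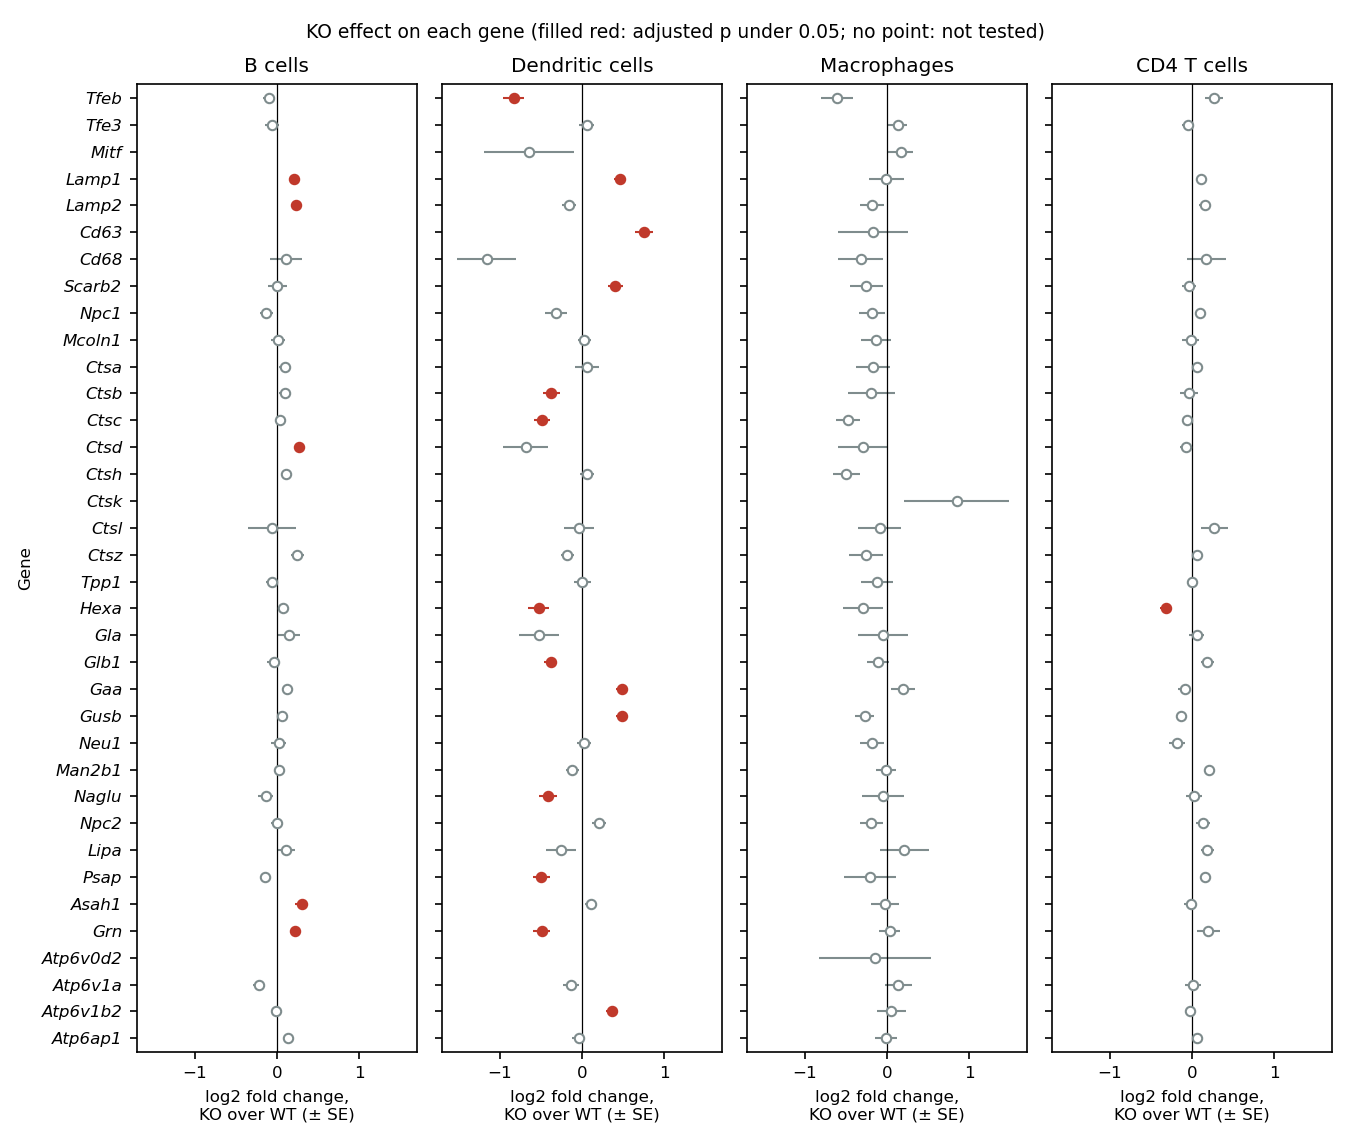
Log2 fold change of each lysosome gene, KO over WT, with its standard error, in the 4 cell types. Filled red points passed an adjusted p of 0.05 in edgeR, open grey points did not, and genes with no point failed the filter on low counts. Called genes lie on both sides of 0 in dendritic cells, to the right in B cells, and are absent in macrophages, where most error bars are longer than in B and CD4 T cells.

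Among the transcription factors, Tfeb fell in KO dendritic cells and the other 2 were not called in any cell type. Tfeb had 20.9, 23.4 and 25.6 CPM in KO dendritic cells, against 46.5, 34.3 and 43.5 CPM in WT, groups that did not overlap (log2 fold change -0.83, SE 0.13, edgeR adjusted p = 0.0015). In macrophages it had 16.7, 18.6 and 20.2 CPM in KO and 26.6, 36.9 and 22.0 CPM in WT. The macrophage groups were also apart, yet the WT libraries spread widely and the gene was not called (-0.60, SE 0.20, edgeR adjusted p = 0.18). Without WT macrophage replicate 3 it was called there, as it was in 1 fit of all 24 libraries. In B cells Tfeb had 52.4, 57.4 and 55.5 CPM in KO and 59.4, 55.6 and 61.6 CPM in WT, which overlapped (-0.10, SE 0.07, edgeR adjusted p = 0.54). In CD4 T cells it had 20.3, 16.6 and 18.9 CPM in KO and 16.8, 14.4 and 15.0 CPM in WT, overlapping at the lowest KO library (0.27, SE 0.11, edgeR adjusted p = 0.21).

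Tfe3, also a factor of the same family, had 159, 170 and 168 CPM in KO and 155, 138 and 167 CPM in WT macrophages. Its values were 49.0, 49.1 and 46.7 CPM in KO and 41.8, 50.2 and 46.9 CPM in WT dendritic cells. They were 28.7, 25.8 and 28.7 CPM in KO and 30.5, 26.8 and 29.5 CPM in WT B cells, and 33.2, 34.9 and 31.3 CPM in KO and 36.1, 33.3 and 33.7 CPM in WT CD4 T cells. The genotypes overlapped in every cell type, and the log2 fold changes lay between -0.06 in B cells and 0.13 in macrophages. Mitf, best known from melanocytes and osteoclasts, had 59.6, 56.4 and 65.0 CPM in KO and 46.7, 50.9 and 65.7 CPM in WT macrophages (0.16, SE 0.15). It had 1.46, 1.37 and 0.710 CPM in KO and 1.42, 0.725 and 3.49 CPM in WT dendritic cells (-0.65, SE 0.55). In B cells it lay between 0.253 and 0.394 CPM in KO and 0.167 and 0.492 CPM in WT, and in CD4 T cells between 0.172 and 0.407 CPM in KO and 0.354 and 0.535 CPM in WT, too low to be tested.

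Lamp1 and Lamp2, glycoproteins of the lysosomal membrane, both rose in KO B cells, and Lamp1 rose in KO dendritic cells. Whether the KO effect on Lamp1 differed between the 4 cell types did not pass the test (edgeR adjusted p = 0.19), and for neither gene was a pair of cell types called. Lamp1 had 2004, 1966 and 1997 CPM in KO dendritic cells, against 1523, 1398 and 1400 CPM in WT, and 217, 215 and 202 CPM in KO B cells, against 184, 179 and 187 CPM in WT. Neither pair of groups overlapped. The log2 fold changes were 0.46 (SE 0.07, edgeR adjusted p = 0.0014) in dendritic cells and 0.20 (SE 0.05, edgeR adjusted p = 0.045) in B cells. Lamp1 had 4205, 4283 and 3741 CPM in KO and 4269, 5149 and 3040 CPM in WT macrophages, and 159.8, 161 and 155.5 CPM in KO and 145, 143 and 154.7 CPM in WT CD4 T cells. The macrophage groups overlapped and the CD4 T cell groups did not, and neither difference passed the test (-0.01, SE 0.21, and 0.10, SE 0.05).

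In B cells Lamp2 had 96.2, 98.5 and 88.9 CPM in KO, against 80.1, 79.4 and 81.4 CPM in WT, without overlap (0.23, SE 0.06, edgeR adjusted p = 0.048). In dendritic cells it had 94.4, 105 and 104 CPM in KO and 105, 112 and 123 CPM in WT (-0.16, SE 0.08, edgeR adjusted p = 0.20). Macrophages had 720, 716 and 700 CPM in KO and 817, 954 and 683 CPM in WT (-0.18, SE 0.14). CD4 T cells had 33.6, 33.9 and 33.6 CPM in KO and 30.6, 29.3 and 31.0 CPM in WT, groups that did not overlap although the gene was not called (0.15, SE 0.07, edgeR adjusted p = 0.26).

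In KO B cells, 5 lysosome genes from 3 roles rose and none fell: the membrane proteins Lamp1 and Lamp2, the protease Ctsd, and Asah1 and Grn of the lipid and cofactor group. That is 5 of 32 tested, where 2.09% of all genes tested were called higher and 1.11% lower. Grn, which encodes progranulin, the precursor of the granulins, had 297, 305 and 327 CPM in KO B cells, against 250, 270 and 273 CPM in WT. Asah1, the acid ceramidase, had 43.9, 46.0 and 45.2 CPM in KO, against 36.4, 33.8 and 39.6 CPM in WT, and Ctsd had 48.7, 52.5 and 55.6 CPM in KO, against 44.0, 42.2 and 43.3 CPM in WT. All KO libraries lay above all WT libraries for the 3 genes. KO exceeded WT on the log2 scale by 0.23 (SE 0.05) in Grn, 0.30 (SE 0.08) in Asah1 and 0.27 (SE 0.07) in Ctsd (edgeR adjusted p = 0.032, 0.046 and 0.049).

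The other 27 tested genes in B cells were not called, and their log2 fold changes lay between -0.21 for Atp6v1a and 0.25 for Ctsz. The median over the 32 was 0.05, against -0.002 over all genes. Mitf, Cd63, Ctsk and Atp6v0d2 failed the filter on low counts. At an unadjusted p under 0.05, 7 were higher and 2 lower, a threshold at which all genes were not counted. DESeq2 called Grn alone as higher and none lower. The 5 calls sit close to the threshold. The count higher was 0 without KO replicate 2, without WT replicate 1, or without WT replicate 2, then 2 without WT replicate 3 and 3 without KO replicate 1. It was 0 in 1 fit of all 24 libraries, and 6 with the replicate block, where 2 were also called lower. In the same B cell libraries plasma cell markers summed to 351 ± 56.6 CPM in KO and 297 ± 35.8 CPM in WT, overlapping, with all 4 higher in KO (exact permutation p = 0.3). Dendritic cell markers summed to 421 ± 15.9 CPM in KO and 458 ± 10.6 CPM in WT, without overlap (SD, n = 3 each, exact permutation p = 0.1). Of the dendritic cell markers 5 were lower in KO and 5 higher. The part of the plasma cell and dendritic cell markers in the 5 calls was not tested.

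In KO dendritic cells 3 membrane proteins and 1 pump subunit rose, 2 proteases, 2 genes of the lipid and cofactor group and Tfeb fell, and of the glycosidases 2 rose and 3 fell. No test compared the roles. Of 34 genes tested, 6 rose, 8 fell and 20 were not called. Among all genes tested in dendritic cells 12.2% were called higher and 9.42% lower. The median was -0.12 over the lysosome genes and -0.01 over all genes. Ctsk and Atp6v0d2 failed the filter.

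Cd63 had 475, 495 and 509 CPM in KO dendritic cells, against 346, 275 and 253 CPM in WT, a log2 fold change of 0.76 (SE 0.11, edgeR adjusted p = 0.00082). Lamp1 rose as given above, and Scarb2, a membrane protein that also carries an enzyme to the lysosome, had 110 ± 7.48 CPM in KO and 82.8 ± 7.39 CPM in WT (SD, n = 3; 0.41, edgeR adjusted p = 0.0081). The KO libraries lay above the WT libraries for each of these 3. The other 4 membrane proteins were not called. Cd68 had 31.8, 21.5 and 25.0 CPM in KO and 38.5, 46.6 and 89.7 CPM in WT (-1.16, SE 0.36, edgeR adjusted p = 0.069), groups that did not overlap. The cholesterol exporter Npc1 (-0.31), Lamp2 (-0.16) and the calcium channel Mcoln1 (0.03) were the rest.

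Among 8 proteases tested, 2 fell in KO dendritic cells and 6 were not called. Ctsc, the dipeptidase that activates granule serine proteases, had 67.0, 57.4 and 62.7 CPM in KO, against 89.1, 77.5 and 94.6 CPM in WT, without overlap (-0.48, SE 0.10, edgeR adjusted p = 0.0053). Ctsb had 251 ± 17.1 CPM in KO and 324 ± 49.0 CPM in WT (SD, n = 3; -0.37, edgeR adjusted p = 0.032). Ctsd had 125, 105 and 108 CPM in KO and 119, 170 and 255 CPM in WT, overlapping, and was not called (-0.68, SE 0.27, edgeR adjusted p = 0.13). The log2 fold changes of Ctsa, Ctsh, Ctsl, Ctsz and Tpp1 lay between -0.18 and 0.07.

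Among the glycosidases, Gusb and Gaa rose while Hexa, Glb1 and Naglu fell. Gusb, the beta-glucuronidase, had 830, 814 and 834 CPM in KO dendritic cells, against 623, 571 and 576 CPM in WT. Gaa, which degrades glycogen in lysosomes, had 105, 107 and 95.8 CPM in KO, against 70.9, 75.8 and 72.7 CPM in WT. In both genes the KO libraries stood clearly above the WT libraries. KO exceeded WT on the log2 scale by 0.48 (SE 0.07) in Gusb and 0.49 (SE 0.08) in Gaa (edgeR adjusted p = 0.0010 and 0.0012).

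The 3 glycosidases that fell act on gangliosides (Hexa and Glb1) and on heparan sulfate (Naglu). Hexa had 101 ± 9.41 CPM in KO and 145 ± 26.6 CPM in WT dendritic cells. Glb1, the beta-galactosidase, had 46.1, 47.3 and 43.8 CPM in KO, against 60.8, 56.6 and 60.4 CPM in WT, and Naglu had 24.8 ± 2.01 CPM in KO and 33.0 ± 2.66 CPM in WT (SD, n = 3 each). None of the 3 overlapped between the genotypes. On the log2 scale the differences were -0.52 for Hexa, -0.38 for Glb1 and -0.41 for Naglu (edgeR adjusted p = 0.016, 0.0071 and 0.021). Gla (-0.52), Man2b1 (-0.12) and Neu1 (0.02) were not called.

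Grn and Psap fell among the 5 genes of lipid handling and cofactors. Grn had 124, 96.2 and 95.8 CPM in KO dendritic cells, against 144, 148 and 152 CPM in WT, and Psap had 1795 ± 74.3 CPM in KO and 2521 ± 396 CPM in WT (SD, n = 3 each). KO libraries were below WT libraries in both. Each fell by 0.49 on the log2 scale (edgeR adjusted p = 0.0068 for Grn and 0.0088 for Psap). Npc2 (0.21), Asah1 (0.11) and the acid lipase Lipa (-0.25) were not called. Of the pump genes, Atp6v1b2, a subunit of the ATP-hydrolysing head, had 317, 342 and 342 CPM in KO, against 257, 272 and 247 CPM in WT, without overlap (0.37, SE 0.07, edgeR adjusted p = 0.0060). The pump genes Atp6v1a (-0.13) and Atp6ap1 (-0.04) were not called.

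**Figure D3:**
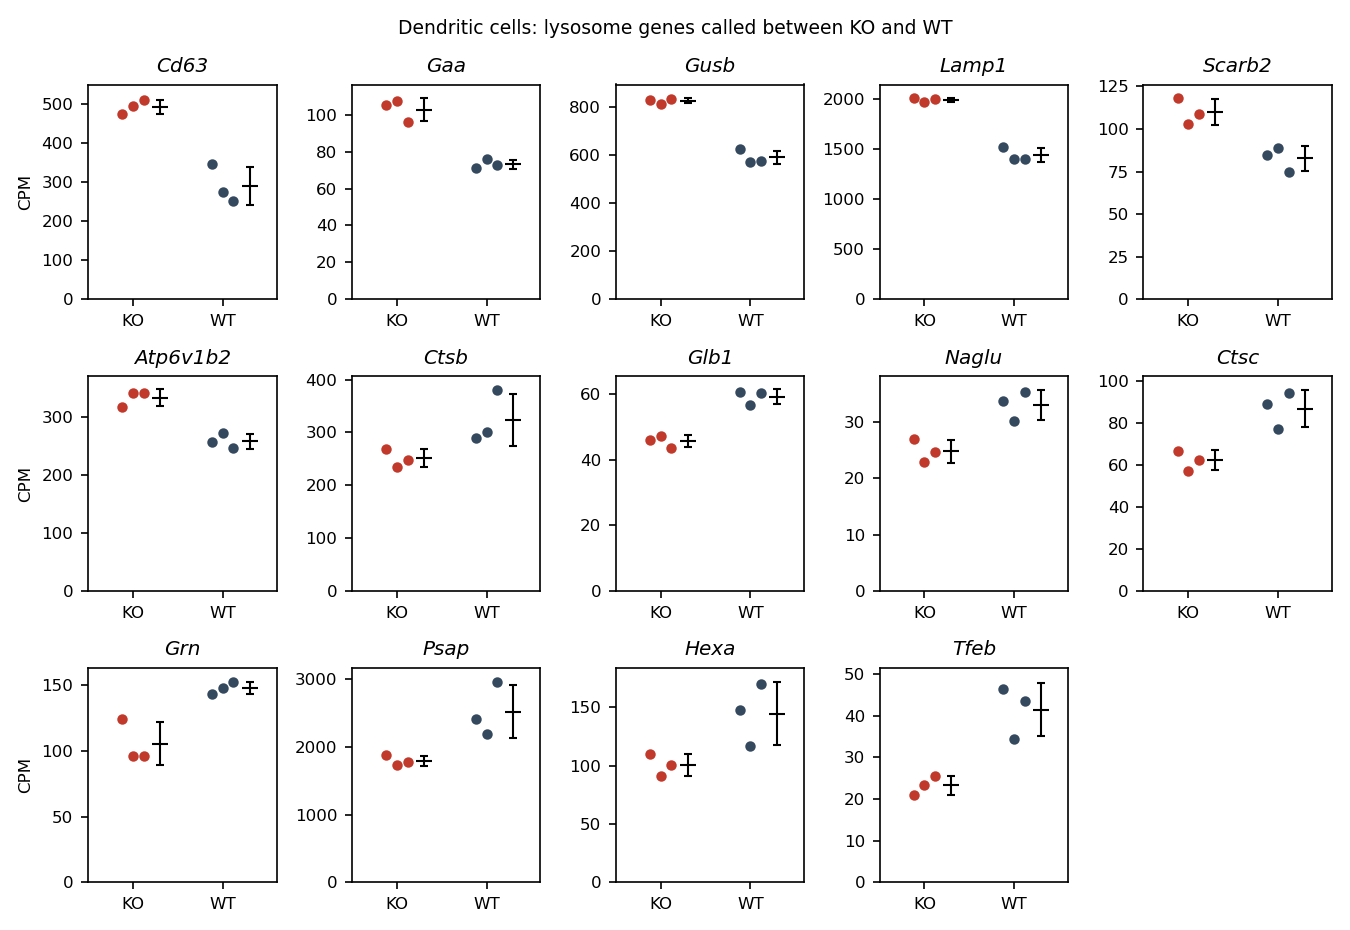
CPM of the 14 lysosome genes called between KO (red, left) and WT (dark, right) dendritic cells, with 1 point per library and the mean ± SD (n = 3) beside them, on axes that start at 0. The first 6 panels are the genes higher in KO and the other 8 those lower, and in each panel the KO and WT points do not overlap.

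Of the 14 dendritic cell calls, 9 were kept under every one of 12 alternative settings: Lamp1, Scarb2, Gaa, Gusb and Atp6v1b2 among those higher, and Tfeb, Ctsc, Glb1 and Grn among those lower. Without KO replicate 2, 4 genes were lower, with Ctsb, Hexa, Naglu and Psap lost, and without KO replicate 3, 5 were lower, with Ctsb, Hexa and Naglu lost. Ctsb was also lost without KO replicate 1 and Hexa without WT replicate 1, while Cd63 was lost only in the fit of all 24 libraries. 

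The sum of macrophage markers was lower in KO than in WT dendritic cells. All 11 markers had a lower mean in KO dendritic cells and none was at 0 in all libraries. The genotypes overlapped, however, for Adgre1, Csf1r, Mertk and Itgam, and WT replicate 3 was the highest WT library for each of these. Adgre1 had 24.4, 20.1 and 20.2 CPM in KO and 21.9, 19.3 and 50.0 CPM in WT. The sum of the 11 markers was 93.4, 76.3 and 80.7 CPM in KO, against 99.5, 133 and 290 CPM in WT (exact permutation p = 0.1, the smallest that 3 against 3 libraries allow). As a share of the sum in WT macrophages this is 0.275 to 0.337% in KO and 0.358 to 1.04% in WT, a difference of -0.327 percentage points between the means. The KO minus WT difference of the 7 genes that fell other than Tfeb was -4.58 to -0.890% of their own level in WT macrophages. These macrophages came from the peritoneum, and macrophages of the spleen were not measured. The part of the macrophage markers in the lysosome gene differences was not tested. Tfeb was higher in WT dendritic cells than in WT macrophages, at 145% of the macrophage level. The 6 genes that rose stood at 23.0 to 50.3% of it, and the 7 other genes that fell at 3.94 to 17.4%. Without WT replicate 3, the library with the highest macrophage sum, 6 genes were called higher and 6 lower, and 11 of the 14 were kept. Ctsb, Hexa and Naglu were lost and Cd68 was added.

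Sums of other markers also differed between KO and WT dendritic cells. Dendritic cell markers summed to 15464 ± 400 CPM in KO and 11791 ± 463 CPM in WT, B cell markers to 19.3 ± 5.79 CPM in KO and 9.06 ± 2.78 CPM in WT, and neutrophil markers to 1.61 ± 0.264 CPM in KO and 6.39 ± 5.49 CPM in WT (SD, n = 3 each, exact permutation p = 0.1 for each). Of the dendritic cell markers 7 were higher in KO and 3 lower. All 6 B cell markers were higher, and 3 neutrophil markers were lower and 0 higher. Of the melanoma markers, Mlana, Tyr, Tyrp1 and Dct were at 0 in all dendritic cell libraries, and Pmel had 1.01 ± 0.239 CPM in KO and 1.77 ± 0.423 CPM in WT. The part of these sums in the lysosome gene differences was not tested.

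In macrophages no lysosome gene was called, although 28 of the 36 had a negative log2 fold change and the median was -0.14, against -0.02 over all genes. Of all genes tested there, 0.55% were called higher and 0.336% lower. At an unadjusted p under 0.05, Tfeb, Ctsc and Ctsh were lower and none was higher, and all genes were not counted at that threshold. DESeq2 called Ctsc. Ctsc had 906, 934 and 1005 CPM in KO macrophages, against 1505, 1131 and 1364 CPM in WT, and Ctsh had 816, 812 and 802 CPM in KO, against 1323, 1239 and 907 CPM in WT. Neither gene overlapped between the genotypes (-0.47, SE 0.15, and -0.49, SE 0.16, with edgeR adjusted p of 0.17 and 0.18).

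The most abundant macrophage genes overlapped widely between the genotypes. Ctsd had 16626, 17323 and 13555 CPM in KO and 18827, 28234 and 12005 CPM in WT, and Psap had 13920, 14464 and 12203 CPM in KO and 15950, 22565 and 9002 CPM in WT. The highest and the lowest value of both genes were WT libraries. Ctsk had the largest value in the other direction, 282, 314 and 140 CPM in KO and 167, 219 and 30.2 CPM in WT, with a wide error (0.85, SE 0.64, edgeR adjusted p = 0.53). Without WT replicate 3, 7 lysosome genes were called lower (Tfeb, Cd68, Ctsc, Ctsh, Ctsz, Hexa and Neu1) and 1 higher (Mitf), and 2746 genes were called over the whole transcriptome, against 95 with it. With the replicate number as a block, 265 genes were called and again none of the 36. Without WT replicate 2 none was called and the median over the 36 was 0.06. The sum of the 11 macrophage markers was 24445 ± 1285 CPM in KO macrophages, against 27748 ± 922 CPM in WT (SD, n = 3 each; exact permutation p = 0.1). The sum of dendritic cell markers was 409 ± 46.7 CPM in KO macrophages, against 278 ± 45.5 CPM in WT (exact permutation p = 0.1). Of these dendritic cell markers, however, 6 were lower in KO and 3 higher. Of the macrophage markers 7 were lower in KO and 4 higher. The part of either sum in the lysosome gene values was not tested.

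In CD4 T cells, Hexa fell and no other lysosome gene was called among the 31 tested. Of all genes tested 1.35% were called higher and 0.798% lower. Hexa had 25.3, 24.9 and 25.4 CPM in KO, against 29.6, 31.7 and 33.0 CPM in WT, without overlap (-0.32, SE 0.07, edgeR adjusted p = 0.040). The call was lost in 8 of 12 alternative settings, among them without KO replicate 1, 2 or 3 and without WT replicate 2 or 3, where the log2 fold change stayed between -0.33 and -0.28. At an unadjusted p under 0.05, 7 lysosome genes were higher and 2 lower, with no count over all genes made at that threshold. DESeq2 called none of the lysosome genes. Man2b1, the lysosomal alpha-mannosidase, had 153, 159 and 162 CPM in KO and 143, 129 and 140 CPM in WT (0.21, SE 0.05, edgeR adjusted p = 0.053). It was called without WT replicate 1, without WT replicate 3, and with no filter on low counts. The median over the 31 was 0.06, against -0.001 over all genes. Mitf, Cd63, Ctsh, Ctsk and Atp6v0d2 failed the filter. Sums of CD4 T cell markers (1301 ± 32.6 CPM in KO and 1353 ± 23.9 CPM in WT), dendritic cell markers (458 ± 39.4 CPM in KO and 390.1 ± 30.9 CPM in WT) and CD8 T and NK cell markers (7.40 ± 2.02 CPM in KO and 5.24 ± 0.486 CPM in WT) did not overlap between the genotypes (SD, n = 3 each, exact permutation p = 0.1 for each). Of the CD4 T cell markers 3 were lower in KO and 3 higher. Of the dendritic cell markers 1 was lower and 7 higher, and 3 CD8 T and NK cell markers were higher and 0 lower. The part of these sums in the Hexa call was not tested.

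Whether the effect of miR-155 loss depended on the cell type was tested in 1 fit of all 24 libraries. It differed for 7 of the 36 genes, Gusb, Tfeb, Ctsh, Ctsc, Grn, Lamp2 and Glb1, where 12.6% of all genes tested were called. Gusb had the smallest adjusted p (0.00019). Its values in dendritic cells are given above, and in macrophages it had 953, 1040 and 883 CPM in KO and 1196, 1202 and 1123 CPM in WT. It had 83.1, 85.2 and 88.2 CPM in KO and 82.2, 82.7 and 80.7 CPM in WT B cells, and 96.5, 105 and 94.7 CPM in KO and 111, 110 and 104 CPM in WT CD4 T cells. KO libraries were above WT libraries in dendritic cells and B cells and below them in macrophages, and the CD4 T cell groups overlapped. The KO effect in dendritic cells exceeded that in macrophages by 0.78 (SE 0.10), that in CD4 T cells by 0.62 (SE 0.10), and that in B cells by 0.42 (edgeR adjusted p of 4.4e-05, 0.00077 and 0.017). Over all 12249 genes, 1136, 747 and 690 were called for these pairs of cell types. For macrophages and CD4 T cells 445 were called, for B cells and macrophages 327, and for B and CD4 T cells 7.

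Tfeb followed with an edgeR adjusted p of 0.0033. Its KO effect in dendritic cells was below that in CD4 T cells by 1.10 (difference -1.10, SE 0.21, edgeR adjusted p = 0.0024), and the effect in B cells exceeded that in dendritic cells by 0.74 (SE 0.20, edgeR adjusted p = 0.028). The effect in macrophages also lay below that in CD4 T cells (difference -0.89, SE 0.21, edgeR adjusted p = 0.018). Grn moved in opposite directions in B cells and dendritic cells, a difference of 0.72 (SE 0.16, edgeR adjusted p = 0.0097). It had 3483, 3559 and 3554 CPM in KO and 3694, 3463 and 3349 CPM in WT macrophages, and 23.9, 17.99 and 17.5 CPM in KO and 16.6, 15.1 and 19.8 CPM in WT CD4 T cells. These 2 pairs of groups overlapped. The edgeR adjusted p over the 4 cell types was 0.013 for Grn.

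**Figure D4:**
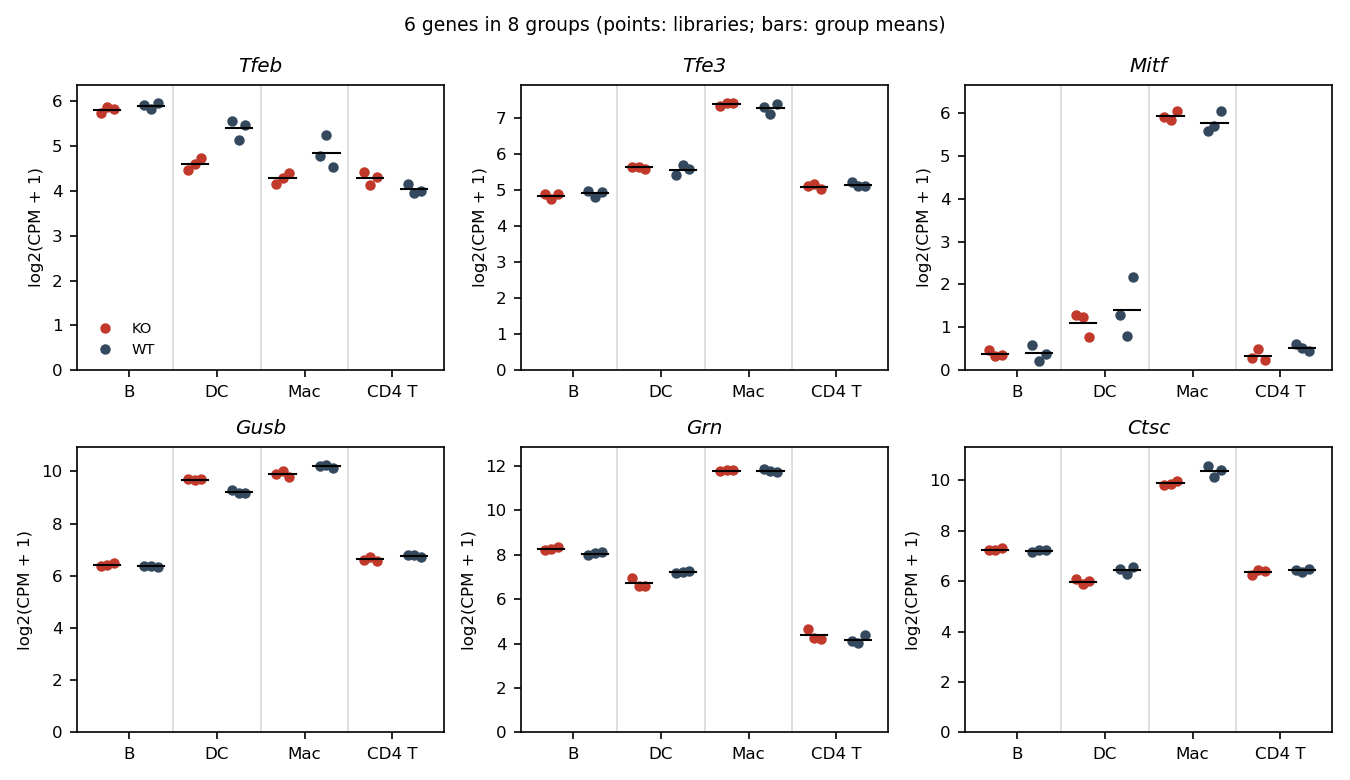
Level of the 3 transcription factors and of Gusb, Grn and Ctsc in the 8 groups, as log2(CPM + 1), with 1 point per library and a bar at the group mean, KO (red) left of WT (dark). Tfeb points lie lower in KO in dendritic cells, Gusb points lie higher in KO dendritic cells and lower in KO macrophages, and Grn points lie higher in KO B cells and lower in KO dendritic cells.

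Ctsc had 148, 149 and 156 CPM in KO and 141, 150 and 148 CPM in WT B cells, and 75.4, 85.1 and 84.2 CPM in KO and 86.0, 81.0 and 88.3 CPM in WT CD4 T cells, both overlapping. Its KO effect in B cells exceeded that in dendritic cells by 0.53 and that in macrophages by 0.54 (edgeR adjusted p of 0.024 and 0.031, and 0.011 over the 4 cell types). Ctsh had 534, 513 and 510 CPM in KO and 546, 451 and 490 CPM in WT dendritic cells, which overlapped, and 174, 199 and 180 CPM in KO and 171, 170 and 169 CPM in WT B cells, which did not. In CD4 T cells it had 17, 25 and 7 counts in KO and 7, 2 and 8 counts in WT, and the call for Ctsh (edgeR adjusted p = 0.010) rests on the difference of macrophages from these few counts (difference -2.04, SE 0.45, edgeR adjusted p = 0.012).

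Glb1 had 314, 338 and 287 CPM in KO and 339, 389 and 295 CPM in WT macrophages, 33.3, 38.3 and 34.3 CPM in KO and 34.8, 38.0 and 35.6 CPM in WT B cells, and 49.7, 46.8 and 56.2 CPM in KO and 47.7, 42.8 and 43.6 CPM in WT CD4 T cells. Only in dendritic cells were the Glb1 groups apart, and its effect there was below that in CD4 T cells by 0.56 (difference -0.56, SE 0.14, edgeR adjusted p = 0.016, and 0.042 over the 4 cell types). For Lamp2 the edgeR adjusted p over the 4 cell types was 0.041 and no single pair of cell types was called. Gaa missed the threshold over the 4 cell types (edgeR adjusted p = 0.051) but was called with DESeq2 size factors and, together with Scarb2, with the replicate block (9 genes in all), and its effect in dendritic cells exceeded that in CD4 T cells by 0.58 (edgeR adjusted p = 0.019). Scarb2 differed between dendritic cells and macrophages by 0.68 (edgeR adjusted p = 0.031). Without KO dendritic cell replicate 2 or replicate 3 the number of genes that differed was 4 (Tfeb, Ctsc, Ctsh and Gusb), and without WT macrophage replicate 3 it was 19. In the last of these fits 3619 genes were called over the whole transcriptome, against 1548 with all libraries.

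Beyond the 36, a list of 92 further genes of the lysosomal pathway was counted in the same fits. In KO dendritic cells 11 of 88 tested rose, 19 fell and 58 were not called, with a median of -0.15, where 12.2% of all genes tested were called higher and 9.42% lower. The share that rose is close to that of all genes. Up to 3 genes with the smallest p are named from each list, and the number beside each is its log2 fold change. The thioesterase Ppt1 (-0.86) and the sphingomyelinase Smpd1 (-0.94) fell and Pld3 (0.57) rose among lipid enzymes and nucleases, Cln3 (-0.95) and Laptm5 (-0.32) fell and Laptm4b (0.43) rose among membrane proteins, and Fuca1 (-0.40) fell and Galc (0.46) rose among sugar enzymes. Of 9 genes that sort enzymes to the lysosome, 3 rose: the sorting receptor Sort1 (0.95) and the adaptors Gga2 (0.50) and Gga3 (0.28). Of 14 other pump subunits, Atp6v1g1 (0.65) rose and 3 fell, among them Atp6v0a2 (-0.37) and Atp6v1d (-0.38). Among 14 genes that control TFEB at the lysosome, 3 rose, among them the GTPase Rragd (0.67) and folliculin, Flcn (0.43), and 2 fell, among them the Ragulator subunit Lamtor4 (-1.77). In the protease list Ctsw (0.73) rose and Prcp (-0.25) fell.

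The other cell types had few such calls. In KO B cells 4 of 81 rose, where 2.09% of all genes were called higher, among them Lgmn (0.47), Atp6v1g1 (0.50) and Atp6v0b (0.34). In macrophages 1 of 88 fell, where 0.336% of all genes were called lower: the sulfatase Galns, with 84.1 ± 7.10 CPM in KO and 141 ± 15.2 CPM in WT (SD, n = 3; -0.72, edgeR adjusted p = 0.049). In CD4 T cells 2 of 87 rose, among them the nuclease Dnase2a (0.80), and 1 fell, where 1.35% of all genes were called higher and 0.798% lower. The gene that fell was Ctse, an aspartic protease of the endosome, with 0.970 ± 0.545 CPM in KO and 46.1 ± 1.66 CPM in WT CD4 T cells (SD, n = 3; -5.62, SE 0.18, edgeR adjusted p = 2.8e-09). In WT cells Ctse was high in CD4 T cells alone, with 1.01 ± 0.216 CPM in B cells. Of 90 pathway genes tested in WT cells, 80 were higher and 4 lower in macrophages and dendritic cells than in B and CD4 T cells, with a median of 1.66, where 43.7% of all genes were called higher and 38.8% lower.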

How the data were processed

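The authors deposited whole-number read counts per gene symbol, 1 table per library, with no normalization. Reads were trimmed with cutadapt and aligned with STAR to mm9, per the submitters' processing notes, which give no versions. Counting tool, annotation and strand setting: not given in the sources used here, so overlapping genes on opposite strands may share reads. Summary lines without a gene stayed out; the one for reads in no feature held 51.4 to 61.1% of a library. Depth was 7428821 to 14219823 counts over genes.

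Groups and replicate numbers came from sample titles. KO and WT were compared within each cell type (6 libraries a fit) with edgeR 4.0.16 in R 4.3.3: TMM scaling, filterByExpr, the robust quasi-likelihood F test, and Benjamini-Hochberg adjustment over all genes tested, called at an adjusted p under 0.05. The standard error (SE) was taken from the log2 fold change and F, as their ratio with F under a square root. Differences of the KO effect between cell types came from 1 fit of 24 libraries with 1 dispersion per gene, although the cell types differ in spread. WT cell types were compared in 1 fit of 12 libraries. CPM are the deposited counts scaled to library size with TMM factors over all 24 libraries, and levels per kb use the longest coding sequence in GENCODE M21 (GRCm38, not the build of the files). All tests were two-sided. Fits were tested on simulated data. Counts of library pairs within groups differed by 2.13 to 170 (chi-square per gene), so none was taken for a copy.

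The genes and lists were chosen with earlier results of these data known. All 36 are accounted for. Values per library are given for genes called between KO and WT (the 8 with the smallest adjusted p where more are called), for Tfeb, Tfe3, Mitf, Lamp1 and Lamp2, for genes whose KO effect differs between cell types, and for the 6 largest and 3 smallest WT contrasts. Per-library values of Cd68, Ctsd, Psap, Ctsk, Ctsh and Man2b1 outside this rule were added after their values were seen. Of the pathway lists, up to 3 called genes each are named. Macrophage markers were 11 genes, among them Adgre1, Csf1r, Cd14, Mertk, Fcgr1 and C1qa. Some genes of the lists are not reported here.

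Same-numbered KO and WT macrophage libraries tended to deviate together (correlations of 0.127, 0.306 and 0.389), and each was most like its own number. The numbers were taken from the titles, and the main tests did not use them as pairs in any cell type. With the replicate block no macrophage call among the 36 changed. Alternatives were DESeq2 1.42.0 (size factors, Wald test), no filter or 1 CPM in at least 3 libraries, the replicate block, 1 fit of 24 libraries, and each library left out.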

Additional observations from a re-analysis of the deposited data

Results flagged for a closer look

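The KO effect differed between the 4 cell types for 7 of the 36 lysosome genes, by the test of that difference in 1 edgeR fit of 24 libraries. Of all genes tested 12.6% were called in the same way. The edgeR adjusted p was 0.00019 for Gusb, 0.0033 for Tfeb, 0.010 for Ctsh, 0.011 for Ctsc, 0.013 for Grn, 0.041 for Lamp2 and 0.042 for Glb1. Gusb was higher in KO dendritic cells (log2 fold change 0.49 in that fit) and lower in KO macrophages (-0.29), with its values apart in both. Grn stood at 0.23 in B cells and at -0.49 in dendritic cells, and Lamp2 at 0.24 in B cells and at -0.20 in macrophages. In that fit of 24 libraries none of the 36 was called between KO and WT B cells, and Lamp2 was not called in macrophages. Gusb was called in macrophages there, but not in the fit of the macrophage libraries alone. Tfeb stood at -0.83 in dendritic cells, -0.62 in macrophages, -0.09 in B cells and 0.27 in CD4 T cells. Ctsc stood at -0.48 in dendritic cells and -0.49 in macrophages, against 0.05 in B cells and -0.06 in CD4 T cells. Glb1 stood at -0.38 in dendritic cells and 0.19 in CD4 T cells. For Ctsh the value of 1.52 in CD4 T cells comes from 2 to 25 counts per library. Tfeb, Ctsc, Ctsh and Gusb were called under each alternative run for this test, and Grn under all but those without KO dendritic cell replicate 2 or 3. Lamp2 and Glb1 lost the call with no filter on low counts. Lamp2 also lost it when single libraries of any of the 4 cell types were left out, and Glb1 when some of the B, dendritic or CD4 T cell libraries were.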

How the results depend on the processing

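In dendritic cells the 6 higher and 8 lower genes became 6 to 7 and 4 to 10 with 1 library left out, and 5 to 6 and 7 to 9 under the other alternatives. In B cells the 5 higher genes became 0 to 4 with 1 library left out and 0 to 6 under the other alternatives. They were 6 with the replicate block, 4 with DESeq2 size factors, 1 with the DESeq2 Wald test and 0 in the fit of 24 libraries. The 0 lower genes became 0 to 1 with 1 library left out and 2 with the replicate block. In macrophages the 0 higher and 0 lower genes became 0 to 1 and 0 to 7 with 1 library left out, and 1 (DESeq2) and 4 (fit of 24 libraries: Tfeb, Ctsc, Ctsh, Gusb) lower. In CD4 T cells the 0 higher and 1 lower became 0 to 2 and 0 to 1 with 1 library left out, 1 higher with no filter, and 0 lower with the replicate block, DESeq2 or the fit of 24 libraries. The 7 genes whose KO effect differs between cell types became 4 to 19 with 1 library left out and 5 to 9 otherwise. In KO in place of WT libraries, 1 gene (Tfeb) was lower in macrophages and dendritic cells than in B and CD4 T cells, against 0 in WT, and 2 (Tfeb and Npc2) were lower in macrophages than in dendritic cells, against 1 in WT. The cause of these changes was not tested.

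Among the alternatives for single genes, 342 kept direction and side of the threshold, 56 lost the call, 4 gained one and 6 changed sign without a call. The sign changes were Lamp1 in macrophages (0.022 with the replicate block; -0.18 to 0.17 with 1 library left out), Tfe3 in dendritic cells (-0.017 to 0.12 with 1 library left out) and Mitf in dendritic cells (-1.03 to 0.14). The replicate numbers were not used as pairs in the main tests. Outside macrophages the same-number correlations were 0.184, 0.0293 and 0.217 in B cells, -0.0219, 0.139 and -0.0937 in dendritic cells, and 0.0401, 0.0613 and -0.242 in CD4 T cells. Not every library in these 3 cell types was most like its own number, and the deposited files number the WT B cell libraries differently from the titles used here, so a shared number there may not mean a shared batch. With the replicate block the genes called over the whole transcriptome were 1260 in B cells, against 325 without it. DESeq2 size factors moved the median of all genes between macrophages and dendritic cells over B and CD4 T cells to 0.17, against 0.10. Depth limits Mitf, Cd63, Ctsk and Atp6v0d2 in B and CD4 T cells, and Ctsh in CD4 T cells.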
